A study of Mus musculus with 9 samples.

Results

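Liver gene expression of Clock mutant mice was compared with that of wild-type mice, gene by gene and across the functions those genes serve. The comparison used the 3 arrays of mutant liver and the 3 arrays of wild-type liver, 6 of the 9 arrays of the study. All probe sets that carry a single gene symbol entered, and where a gene had several, the probe set that was brightest over all arrays was kept, which gave 19938 genes out of 35556 probe sets. The wild-type animals were C57BL/6J mice. The mutants carried the Clock-D19 allele, in which an exon is skipped and the protein, although able to dimerise, is a poor activator. The remaining group held 3 mutants that had been injected with a plasmid for wild-type Clock, and it served here only to estimate the spread between animals. Every animal ate a diet with 45% fat for 5 weeks from 10 weeks of age, under 12 h of light and 12 h of dark, and liver was taken at ZT10, when lights had been on for 10 h. Sex, littermate status and the strain background of the mutants are absent from the labels read here. A control injection of the mutant and wild-type animals is not described.

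The circadian clock of the hepatocyte is a transcriptional loop. CLOCK and BMAL1 (the product of Arntl) bind E-box sequences and activate the period, cryptochrome, REV-ERB, DEC and D-box factor genes, whose products feed back on CLOCK, on BMAL1 or on shared targets. REV-ERB proteins repress genes through ROR elements, NFIL3 competes with the D-box activators DBP, TEF and HLF, and through these branches the loop times sterol, bile acid, lipid, heme and NAD metabolism in liver.

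These 7 stretches are shown because they lie before the starts of genes with large differences between the groups and hold the letters that CLOCK-BMAL1 or REV-ERB are known to recognise. The first 4 belong to genes that were lower in mutant liver, the others to genes that were higher. Each is the 250 bases before the annotated start, 5′ to 3′ on the strand of the gene, from RefSeq (build GRCm38.p6). Capitals mark the E-box CACGTG and, in Nfil3, the ROR element TAGGTCA, which lies there on the opposite strand and is printed as its reverse complement.
Bhlhe41 (chr6:145865421-145865670, minus strand): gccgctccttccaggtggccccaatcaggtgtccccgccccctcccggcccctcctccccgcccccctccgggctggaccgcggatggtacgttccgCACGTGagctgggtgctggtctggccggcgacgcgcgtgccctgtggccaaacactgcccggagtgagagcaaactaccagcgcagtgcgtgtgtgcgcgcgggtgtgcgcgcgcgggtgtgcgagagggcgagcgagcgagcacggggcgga
Ankrd12 (chr17:66077047-66077296, minus strand): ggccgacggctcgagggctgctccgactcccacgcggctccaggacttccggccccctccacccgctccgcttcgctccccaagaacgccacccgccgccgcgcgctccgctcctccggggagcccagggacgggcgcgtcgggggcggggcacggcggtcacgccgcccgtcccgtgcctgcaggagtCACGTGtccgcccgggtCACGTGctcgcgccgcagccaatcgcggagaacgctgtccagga
Coq10b (chr1:55052520-55052769, plus strand): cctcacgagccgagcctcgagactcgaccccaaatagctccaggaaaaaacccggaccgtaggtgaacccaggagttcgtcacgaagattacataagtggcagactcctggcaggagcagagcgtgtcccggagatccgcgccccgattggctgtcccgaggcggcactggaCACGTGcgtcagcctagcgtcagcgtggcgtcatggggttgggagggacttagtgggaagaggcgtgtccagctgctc
Ciart (chr3:95882229-95882478, minus strand): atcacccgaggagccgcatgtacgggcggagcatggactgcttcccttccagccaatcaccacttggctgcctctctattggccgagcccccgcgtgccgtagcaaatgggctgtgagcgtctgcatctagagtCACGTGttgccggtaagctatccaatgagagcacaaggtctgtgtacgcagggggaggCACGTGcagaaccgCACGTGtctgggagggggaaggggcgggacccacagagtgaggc
Nfil3 (chr13:52981040-52981289, minus strand): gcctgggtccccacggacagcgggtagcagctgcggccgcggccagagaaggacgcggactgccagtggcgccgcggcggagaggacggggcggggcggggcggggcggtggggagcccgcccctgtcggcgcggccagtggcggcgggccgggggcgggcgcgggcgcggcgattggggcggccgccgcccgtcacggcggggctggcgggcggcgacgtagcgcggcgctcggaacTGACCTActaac
Aqp8 (chr7:123462044-123462293, plus strand): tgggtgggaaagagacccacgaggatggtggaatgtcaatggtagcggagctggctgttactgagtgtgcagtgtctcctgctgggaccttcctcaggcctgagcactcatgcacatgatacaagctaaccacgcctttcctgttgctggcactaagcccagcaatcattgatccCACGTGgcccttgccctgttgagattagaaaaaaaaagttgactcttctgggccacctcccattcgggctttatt
Bcl6 (chr16:23988853-23989102, minus strand): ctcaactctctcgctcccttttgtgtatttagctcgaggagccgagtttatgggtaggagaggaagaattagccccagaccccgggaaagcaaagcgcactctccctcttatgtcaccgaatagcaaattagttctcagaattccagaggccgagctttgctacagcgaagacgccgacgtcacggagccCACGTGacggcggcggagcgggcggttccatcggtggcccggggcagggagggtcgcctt

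The motif search covered 250 bases before and 50 bases after the start, on both strands, in 15614 tested genes that the table of promoters holds. The E-box is its own reverse complement and does not overlap the ROR element. Bhlhe41, a DEC repressor of the loop, had an E-box that began 153 bases before the start. Ciart, another repressor of CLOCK and BMAL1, had 3 (at 116, 58 and 44 bases before the start). Ankrd12, an ankyrin repeat gene, had 2 (at 61 and 44 bases), and Coq10b, whose product binds coenzyme Q, had 1 (at 78 bases). The water channel gene Aqp8 (75 bases before the start) and the repressor gene Bcl6 (60 bases) also held an E-box, and these were higher in mutant liver. Bcl6 has 2 annotated starts in the table of promoters, and only the window shown had a match. Nfil3 held a ROR element that began 12 bases before the start.

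E-boxes were found in 9.5% of all promoters searched, that is in 1483 of 15614. Among genes called lower in mutant liver, 12.9% held an E-box (185 of 1438), and among those called higher 11.4% did (115 of 1012). For genes that changed at least 2-fold, the shares were 14.9% of those lower (13 of 87) and 22.7% of those higher (5 of 22). In the 100 bases around the start the E-box was present in 4.05% of all promoters, 5.49% of those of lower genes and 4.64% of those of higher genes. For genes that changed at least 2-fold, the shares there were 4.6% of those lower (4 of 87) and 4.55% of those higher (1 of 22). ROR elements were present in 2.63% of all promoters, 2.29% of those of lower genes and 3.26% of those of higher genes. Of the 15 core clock genes with a promoter in the table, 5 held an E-box, and 1 held it in the 100 bases around the start. These shares are descriptions of letters in a fixed window. They do not show binding, and a window without a match says nothing of sites elsewhere.

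**Figure D1:**
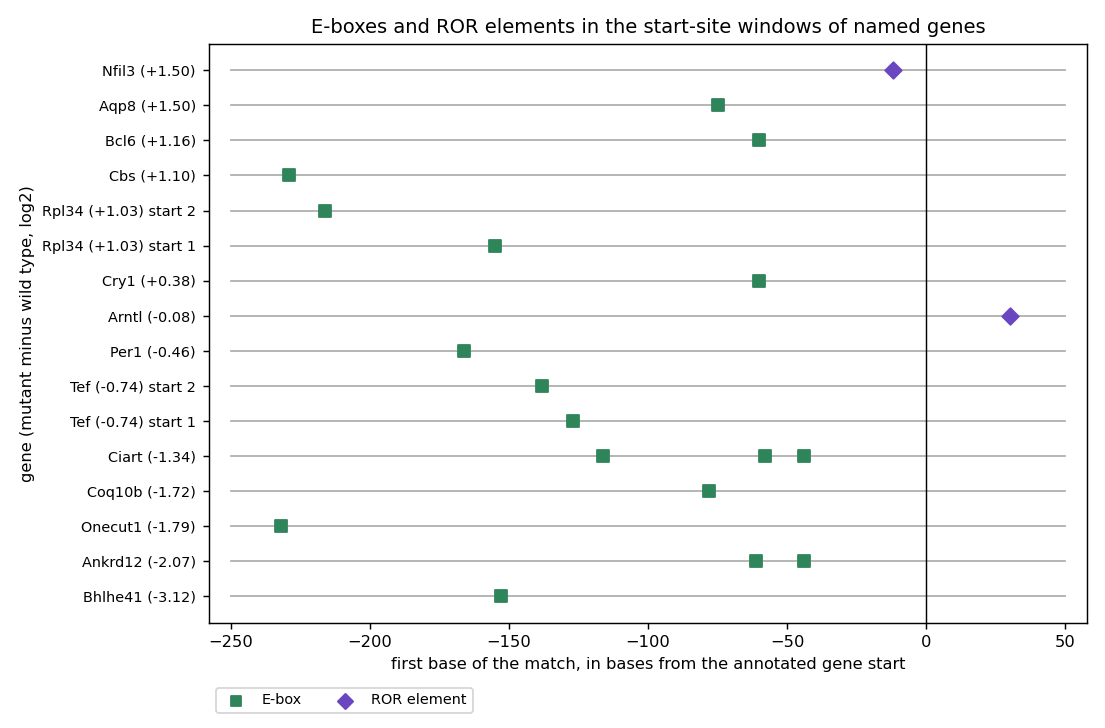
Position of the first base of each E-box (squares) and ROR element (diamonds) relative to the annotated gene start (0), in bases, for the named genes that hold either motif, ordered by the difference between mutant and wild-type liver (log2, in brackets; each grey line is 1 window, and genes with more than 1 annotated start have a line for each matching window). The E-boxes of Ciart lie at -116, -58 and -44, and E-boxes occur in genes that were lower (Bhlhe41, -3.12) and in genes that were higher (Aqp8, 1.50).

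Values are log2 expression levels from RMA, so a difference of 1 is a 2-fold change. Differences are mutant minus wild type with the standard error of the limma model, and a gene was called when its limma p, adjusted by Benjamini-Hochberg over all 19938 genes, was under 0.05. There were 3 animals in each group and 1 array per animal, so the p-values measure the spread between these animals. Counts of genes called in a functional list are given with those alternatives other than the replicate block, and those arrays left out in turn, that moved them by over 1.5 times. Counts of 2 or fewer are small enough that leaving out single arrays of every group changed some of them to 0, 1 or 2, and those changes are not listed. Every list count stands against the shares over all genes, 6.37% called higher and 9.02% called lower. Where 6 values are listed, the first 3 are wild-type replicates 1 to 3 and the others are mutant replicates 1 to 3.

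In all, 3068 genes were called, 15.4% of those tested. Of these, 1270 (6.37% of all genes) were higher and 1798 (9.02%) were lower in mutant liver. With each array centred on its median gene, 610 were higher and 2272 lower, so the balance between rises and falls depended on that step. Leaving out wild-type replicate 3 left 1695 calls (533 higher, 1162 lower), and leaving out Clock mutant replicate 1 left 2035 (693 and 1342). Leaving out Clock mutant replicate 3 left 782 rises. Median differences were 0.46 among the rises and -0.52 among the falls, against 0.07 over all genes, and 147 called genes changed at least 2-fold (38 higher, 109 lower). The 3 mutant and 3 wild-type values did not overlap in 35.7% of all genes, called or not.

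Brighter genes fell more often than dim ones. With genes divided into 5 equal groups by mean level, 128 were called higher and 36 lower in the dimmest group, and in the brightest group 386 were called higher and 941 lower. Gene span moved with the difference as well. Among the genes of shortest genomic span 330 rose and 67 fell, and among those of longest span 146 rose and 674 fell. Removing a smooth trend on span from each array left 2806 calls (1270 higher, 1536 lower), of which 2362 were among the 3068. The part of span, and of whatever property of the RNA it follows, in each gene's difference was not tested. On the first principal component of the 6 arrays (55% of the variance), wild-type arrays lay between -26.3 and -15.5 and mutant arrays between 17.7 and 24.6, so no array lay with the other group.

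**Figure D2:**
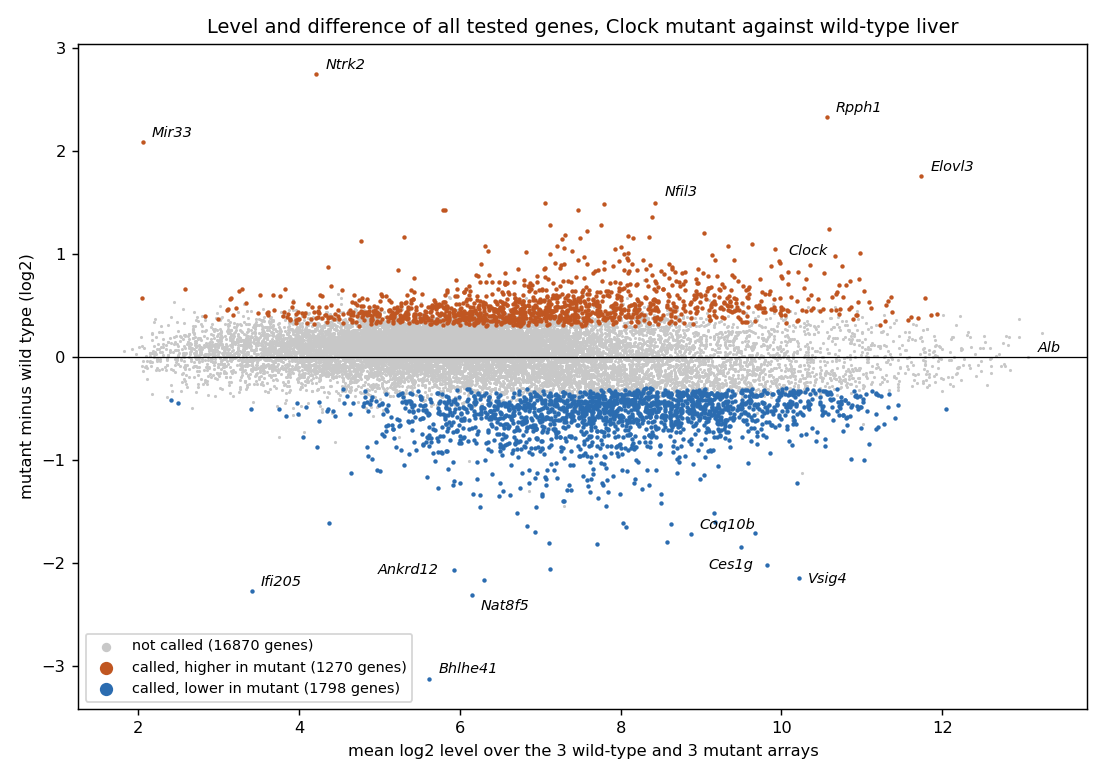
Mean log2 level over the 6 arrays (x axis) against the log2 difference of mutant minus wild type (y axis) for all 19938 tested genes; grey points were not called, orange points were called higher (1270) and blue points called lower (1798) in mutant liver. Bhlhe41 (-3.12) and Ntrk2 (2.75) lie farthest from 0, and the falls outnumber the rises at high levels.

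The mutated gene was read first. Clock values were 9.97, 9.24 and 9.30 in wild-type liver and 10.88, 9.89 and 10.55 in mutant liver, so the groups overlapped although the mutant mean was 0.94 ± 0.26 higher (limma adjusted p = 0.0266). The call was lost with a trended and robust prior and when any of wild-type replicates 2 and 3 or mutant replicates 1 and 3 was left out (adjusted p up to 0.139). The probe set cannot separate the mutant transcript from the normal one and so does not check the labels. Among the 10 tested genes on either side of Clock in gene order, 5 fell and none rose by the limma test, where 9.02% of all genes fell. Kdr lies 3 genes from Clock and fell by 0.86, and Ppat lies 8 genes away and fell by 1.12. Kdr is also an endothelial gene, and the summed endothelial markers were lower in every mutant (4740 to 4960 against 6683 to 7447). The part of those cells in its fall was not tested. Differences of such neighbours that come from Clock and differences that come with the chromosome segment around it cannot be told apart in this design.

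The core loop was mostly lower at ZT10. That was the only time sampled, so a different daily mean and a different timing or amplitude cannot be told apart here. The same holds for any other gene that cycles over the day. Of its 17 measured members 11 fell, 2 rose and 4 were not called (64.7% lower against 9.02% of all genes), with a median difference of -0.71 against 0.07 over all genes. The activator partner Arntl was level, at 7.68, 7.90 and 8.16 in wild-type and 7.84, 7.88 and 7.78 in mutant liver (-0.08 ± 0.12). Rora, an activator at ROR elements, was also not called (-0.07 ± 0.09).

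The repressors of the loop differed in size. Bhlhe41 read 7.39, 7.23 and 6.92 in wild-type and 4.36, 3.79 and 4.05 in mutant liver, with a wide gap between the groups (-3.12 ± 0.20, limma adjusted p = 8.19e-07). Its mutant mean (4.06) was under the median of olfactory receptors (4.20), genes that liver is not known to express, so the size of its fall is uncertain. Bhlhe40, the related DEC gene, fell by 0.88 ± 0.22, a call lost with the trended and robust prior. The period genes fell to different degrees. Per3 went from 8.02, 7.65 and 7.69 to 6.09, 6.21 and 5.96 (-1.70 ± 0.17), while Per2 fell by 0.67 ± 0.13. Per1 fell by 0.46 ± 0.13, a call lost without any of wild-type replicates 1 and 2 or mutant replicates 1 and 3 (adjusted p up to 0.106). Ciart fell from 7.44, 7.49 and 6.93 to 6.02, 6.03 and 5.80. Neither cryptochrome was called, with Cry1 at 0.38 ± 0.16 and Cry2 at -0.18 ± 0.13.

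Of the REV-ERB genes, Nr1d2 read 9.83, 9.49 and 9.41 in wild-type and 8.74, 8.15 and 8.31 in mutant liver, with no overlap (-1.18 ± 0.17). Nr1d1 did overlap, because wild-type replicate 3 (8.96) lay with the mutants, and its call (-0.80 ± 0.26) was lost in 10 of 18 alternatives. Each D-box activator fell in all mutants: Dbp from 7.70, 7.77 and 7.66 to 6.64, 6.74 and 6.49, Tef by 0.74 ± 0.12 and Hlf by 0.71 ± 0.10. Their competitor Nfil3 went the other way, from 7.59, 7.76 and 7.69 to 9.29, 9.03 and 9.23 (1.50 ± 0.12, limma adjusted p = 4.32e-06).

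Of 23 measured kinases, ubiquitin ligases and cofactors that act on clock proteins, 6 fell and 2 rose. Usp2, a deubiquitinase of clock proteins, read 8.38, 7.85 and 7.80 in wild-type and 6.20, 6.29 and 6.13 in mutant liver (-1.80 ± 0.15). The kinase genes Gsk3b (-0.53 ± 0.11) and Prkaa1 (-0.46 ± 0.10), an AMPK subunit, fell less. Timeless, which acts in replication and checkpoints, rose by 0.47 ± 0.10. Across all 50 ubiquitin-specific proteases 15 fell and 1 rose (30% lower, median -0.19). Beyond Usp2 the falls were smaller and alike in size, with Usp25 at -0.72 ± 0.10, Usp9x at -0.61 ± 0.10 and Usp32 at -0.53 ± 0.11. Falls of the proteases numbered 8 without wild-type replicate 3 or with the span trend removed.

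**Figure D3:**
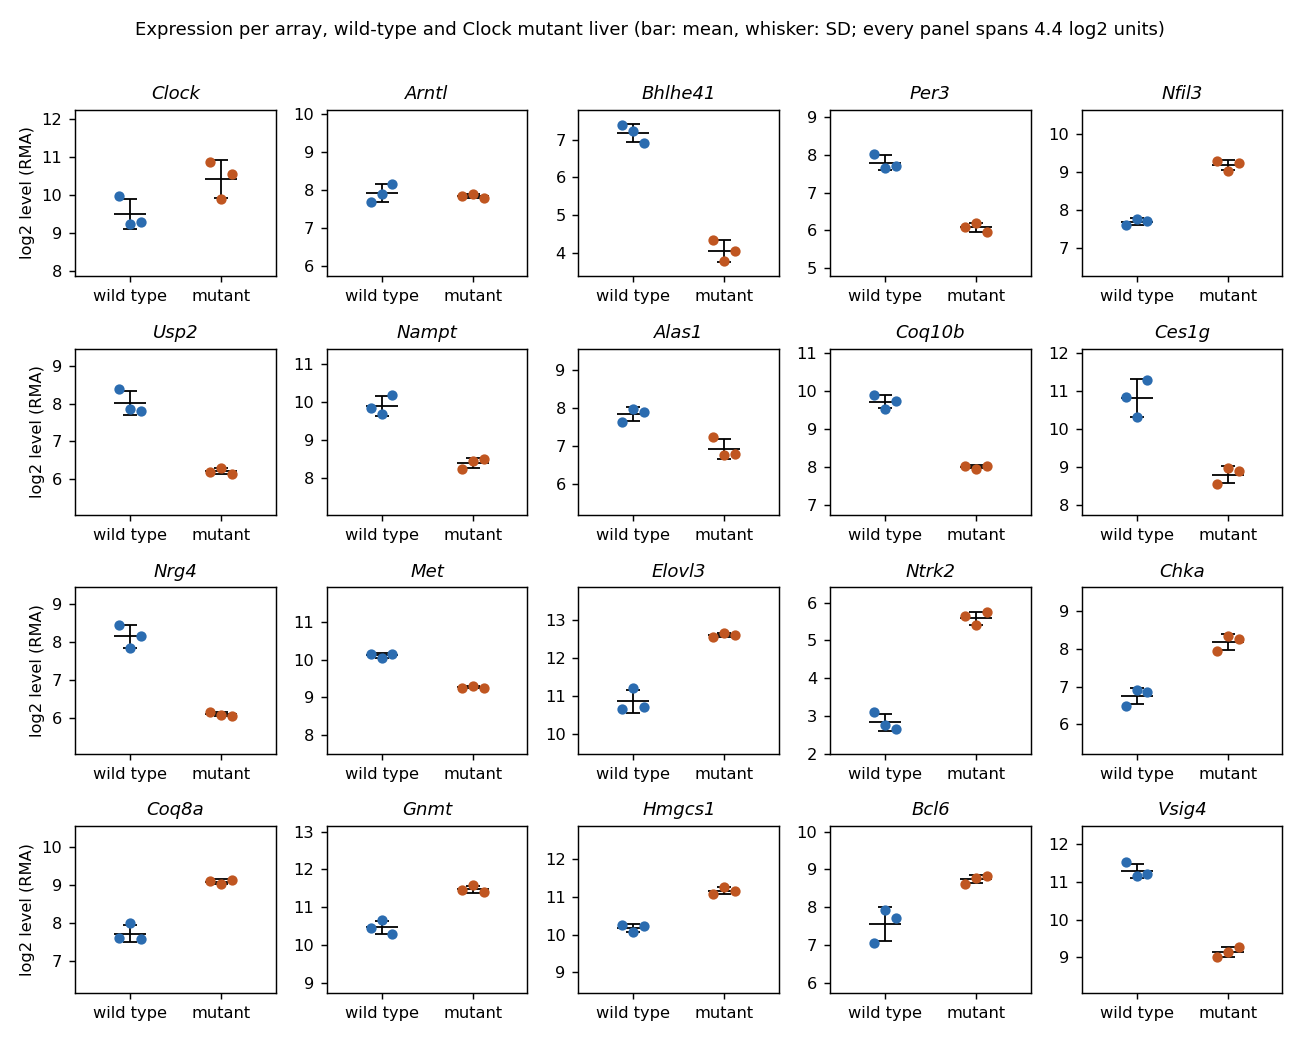
Log2 level of 20 named genes on each wild-type (blue) and mutant (orange) array, with the group mean (bar) and SD (whiskers); every panel has its own axis of equal length, so distances can be compared between panels but levels cannot. Groups overlap in Clock and Arntl, and are separate in the other 18 genes.

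Transcription factors and nuclear receptors of liver changed in both directions, with 4 of 53 higher and 8 lower. Onecut1, a hepatocyte lineage factor, went from 9.16, 9.28 and 9.96 to 7.45, 7.81 and 7.77, but its call was lost with the trended and robust prior (adjusted p = 0.0777). Bcl6, a repressor that shapes male liver expression, rose from 7.06, 7.94 and 7.71 to 8.61, 8.77 and 8.82. The corticoid receptor genes both fell, Nr3c1 (glucocorticoid) by 0.63 ± 0.12 and Nr3c2 (mineralocorticoid) by 0.71 ± 0.12. The rises numbered 1 without mutant replicate 2 or wild-type replicate 3 and 2 without wild-type replicate 1 or with the 6 arrays alone or median centring. The falls numbered 5 without mutant replicate 1.

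Genes of the transcription and chromatin machinery changed in both directions. Among 46 RNA polymerase II and Mediator genes 8 fell and 1 rose, among 73 chromatin remodellers and histone modifiers 13 fell and 4 rose, and among 341 zinc finger genes of the Zfp series 59 fell and 14 rose. The shares lower were 17.4%, 17.8% and 17.3%, against 9.02% over all genes. Polr2b, a large subunit of polymerase II, read 9.62, 9.50 and 9.77 in wild-type and 9.02, 8.76 and 9.02 in mutant liver. Med14, which holds Mediator together, fell by 0.64 ± 0.12. The remodeller gene Chd9 fell by 0.72 ± 0.11, Suz12 of the Polycomb complex by 0.61 ± 0.11 and the acetyltransferase gene Ep300 by 0.57 ± 0.11. Groups did not overlap in any of these 5. Median differences of these lists were 0.04 for polymerase II and Mediator, -0.07 for chromatin genes and -0.06 for Zfp genes, against 0.07 over all genes. Polymerase and Mediator rises numbered 3 with the dimmest 40% of genes left out or array weights and 4 without mutant replicate 2. Their falls numbered 4 without wild-type replicate 1 and 5 without mutant replicate 2 or wild-type replicate 2 or with quantile normalization or the span trend removed. Chromatin rises numbered 1 without mutant replicate 1 or wild-type replicate 3 or with median centring and 2 without mutant replicate 2 or 3 or wild-type replicate 1. Chromatin falls numbered 8 without wild-type replicate 3. Zfp rises numbered 1 without wild-type replicate 3, 5 with median centring, 7 without mutant replicate 1 or wild-type replicate 1, 8 without rescue replicate 3 or with the 6 arrays alone and 9 without mutant replicate 3, rescue replicate 1 or wild-type replicate 2 or with quantile normalization. Zfp falls numbered 36 without wild-type replicate 3.

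Genes for cytosolic ribosomal proteins that were called were higher in mutant liver. Of 61 genes for cytosolic ribosomal proteins 19 rose and none fell by the limma test (31.1% against 6.37%, with 0 lower at an unadjusted p under 0.05), with a median difference of 0.32. Rpl26 read 7.44, 7.75 and 7.32 in wild-type and 8.38, 7.95 and 8.35 in mutant liver, and Rpl7l1 went from 6.46, 6.44 and 6.45 to 6.94, 6.98 and 7.14. Mutant replicate 2 was the lowest mutant for Rpl26 but lay above every wild type. Rps2 (1.05 ± 0.21), Rpsa (0.62 ± 0.12) and Rpl34 (1.03 ± 0.18) also rose, and the copies of ribosomal protein genes in the genome make their probe sets uncertain. Rises of cytosolic ribosomal proteins numbered 7 without mutant replicate 3 or wild-type replicate 3, 8 without mutant replicate 1, 10 with median centring or the span trend removed and 31 with quantile normalization.

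Mitochondrial ribosomal proteins were mixed, with 11 of 77 higher and 4 lower. Mrps22 fell by 0.61 ± 0.12 and Mrps30 by 0.52 ± 0.10, while Mrps6 rose by 0.50 ± 0.10. Of 92 translation factors and tRNA synthetases 9 rose and 8 fell (9.78% and 8.7%, against 6.37% and 9.02% of all genes). Eif2ak2, the kinase PKR that stops translation in response to double-stranded RNA, fell by 0.70 ± 0.12, and Tars, a tRNA synthetase gene, rose by 0.59 ± 0.11. Mitochondrial ribosomal rises numbered 1 without mutant replicate 1 or wild-type replicate 3 or with median centring, 2 without mutant replicate 3, 5 without wild-type replicate 1, 6 without wild-type replicate 2 or with the span trend removed and 17 with quantile normalization or array weights. Their falls numbered 2 without wild-type replicate 3. Translation rises numbered 4 with median centring, 5 without mutant replicate 1 or wild-type replicate 3 and 14 with quantile normalization or array weights. Translation falls numbered 4 without mutant replicate 3 or wild-type replicate 1 or 3 and 5 without mutant replicate 1.

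Genes that fold, secrete and degrade proteins did not share a direction. In the proteasome 9 of 48 genes rose and 3 fell. Psmd13, a subunit of the regulatory particle, rose by 0.55 ± 0.11, and Psme4, an alternative activator, fell from 10.32, 10.29 and 10.36 to 9.79, 9.69 and 9.80. Heat shock proteins and cochaperones fell in 13 of 92 cases and rose in 1, and those named below are J-domain cochaperones. Dnajc10, of the endoplasmic reticulum, fell by 0.55 ± 0.10 and Dnajc13, of endosomes, by 0.54 ± 0.11. Proteasome rises numbered 1 without wild-type replicate 3, 4 without mutant replicate 1 or with median centring, 5 without mutant replicate 3 and 15 with quantile normalization. Proteasome falls numbered 1 without mutant replicate 1 or 3 or wild-type replicate 1 or 3 and 5 with the dimmest 40% of genes left out, median centring or the trended and robust prior. Chaperone rises numbered 3 without rescue replicate 1 or with the trended and robust prior or array weights, 5 with quantile normalization and 6 with the dimmest 40% of genes left out. Chaperone falls numbered 4 without wild-type replicate 3, 6 without mutant replicate 1 or 2, 7 without mutant replicate 3 or wild-type replicate 2 and 8 without wild-type replicate 1 or with quantile normalization.

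In the unfolded protein and integrated stress response 8 of 50 genes rose and 5 fell. The transcription factor gene Atf4 rose from 7.09, 7.21 and 7.37 to 7.81, 7.98 and 7.66, and Atf5 rose by 0.90 ± 0.13. Asns, the asparagine synthetase gene that ATF4 is known to activate, went the other way, from 6.54, 5.55 and 5.87 to 5.18, 5.21 and 5.11. The chaperone gene Calr rose by 0.62 ± 0.11. In the secretory pathway 9 of 66 genes rose and 7 fell. Ssr2, of the translocon, rose from 8.78, 8.61 and 8.69 to 9.63, 9.56 and 9.76, and Mia3, which exports large cargo from the endoplasmic reticulum, fell by 0.61 ± 0.12. Stress response rises numbered 3 without mutant replicate 3 or wild-type replicate 2 or with median centring and 4 without wild-type replicate 3. Stress response falls numbered 2 without mutant replicate 1 and 3 without wild-type replicate 1. Secretory rises numbered 3 without mutant replicate 1 or 3, 4 without wild-type replicate 3 or with median centring, 5 without wild-type replicate 2, 15 with array weights and 16 with quantile normalization. Secretory falls numbered 3 without wild-type replicate 3, 4 without mutant replicate 1 or 3 or wild-type replicate 1 and 12 with median centring.

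Lysosomal and autophagy genes were also split. Of 69 lysosomal genes 5 rose and 6 fell (7.25% and 8.7%), near the 6.37% and 9.02% of all genes. Of 47 autophagy genes 6 rose and 5 fell (12.8% and 10.6%). The acid ceramidase gene Asah1 fell from 8.35, 8.18 and 8.13 to 7.45, 7.40 and 7.54, and the proton pump subunit gene Atp6v1f rose by 1.08 ± 0.18. Rb1cc1, a scaffold of the autophagy starting complex, fell by 0.86 ± 0.12, whereas the cargo receptor gene Sqstm1 rose by 0.68 ± 0.13 and Atg7 by 0.51 ± 0.12. Lysosomal rises numbered 1 without mutant replicate 1 or wild-type replicate 2 or with median centring, 2 without mutant replicate 3 or wild-type replicate 3, 3 without mutant replicate 2, 8 with the 6 arrays alone, the dimmest 40% of genes left out or array weights, 9 without rescue replicate 2 or with the trended and robust prior and 11 with quantile normalization. Lysosomal falls numbered 3 without wild-type replicate 1. Autophagy rises numbered 3 without mutant replicate 1 or 3 or wild-type replicate 2 or 3 or with median centring. Autophagy falls numbered 2 without wild-type replicate 1 or 3 or with the span trend removed and 3 without mutant replicate 1 or 3 or wild-type replicate 2 or with quantile normalization.

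Respiratory chain genes that were called were higher in mutant liver. Of 83 subunits of the chain and ATP synthase 26 rose and none fell by the limma test (31.3% against 6.37%, with 1 lower at an unadjusted p under 0.05), with a median difference of 0.32. Atp5e read 8.84, 8.82 and 8.28 in wild-type and 9.85, 9.32 and 9.73 in mutant liver (0.99 ± 0.21, limma adjusted p = 0.00666). Uqcrq of complex III rose by 0.86 ± 0.18 and Ndufb7 of complex I by 0.74 ± 0.16, again with no overlap. Carriers of the inner membrane did not share this, with 6 of 46 Slc25 genes higher and 7 lower. Slc25a4, an ADP/ATP carrier, fell from 8.33, 8.28 and 8.05 to 6.84, 7.05 and 7.23, while the dicarboxylate carrier gene Slc25a10 rose by 0.65 ± 0.13. Respiratory chain rises numbered 9 without wild-type replicate 3, 11 without mutant replicate 1, 14 with median centring, 16 without mutant replicate 3 and 17 with the span trend removed. Carrier rises numbered 2 without wild-type replicate 3 and 3 without mutant replicate 2. Carrier falls numbered 3 without wild-type replicate 1 and 4 without mutant replicate 1 or 3 or wild-type replicate 3.

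In the tricarboxylic acid cycle 5 of 34 genes rose and 4 fell. Cs, citrate synthase, rose from 9.67, 9.64 and 9.75 to 10.29, 10.23 and 10.27, and Pcx, pyruvate carboxylase, rose by 0.64 ± 0.11. The malic enzyme gene Me2 fell by 1.18 ± 0.16 and Pdk4, a kinase that holds back pyruvate oxidation, rose by 0.53 ± 0.12. The rises numbered 3 without wild-type replicate 3. The falls numbered 2 without mutant replicate 2 or 3 or wild-type replicate 2 or 3 or with quantile normalization or the span trend removed.

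Coenzyme Q genes held changes of large size in both directions. Coq8a, which supports coenzyme Q synthesis, rose from 7.59, 7.98 and 7.57 to 9.10, 9.01 and 9.12, and Coq9 rose by 0.46 ± 0.10. Coq10b, printed above with its E-box, fell from 9.90, 9.54 and 9.75 to 8.04, 7.96 and 8.02 (-1.72 ± 0.11, limma adjusted p = 8.19e-07). The other gene called among the 12 measured, Coq10a, rose by 0.43 ± 0.13 with overlapping groups, and its call was lost in 7 of 18 alternatives.

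Called NAD genes changed in both directions. Nampt, the rate-limiting enzyme of salvage from nicotinamide, read 9.85, 9.68 and 10.20 in wild-type and 8.24, 8.46 and 8.49 in mutant liver. Nmrk1, which uses nicotinamide riboside, fell from 8.74, 8.33 and 8.90 to 7.45, 7.33 and 7.21. Of genes that act in NAD synthesis from tryptophan, Haao rose by 0.89 ± 0.13, Qprt by 0.65 ± 0.12 and Afmid by 0.62 ± 0.13. Of 33 measured NAD genes 5 rose and 3 fell (15.2% higher against 6.37% of all genes, 9.09% lower against 9.02%), and the third to fall was the deacetylase gene Sirt1 (-0.46 ± 0.11), whose call was lost without wild-type replicate 1 (adjusted p = 0.0501). The rises numbered 3 without mutant replicate 1 or wild-type replicate 2 or 3 or with median centring.

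Heme synthesis split along its steps. Alas1, its rate-limiting enzyme, fell from 7.63, 7.99 and 7.90 to 7.23, 6.76 and 6.79 (-0.91 ± 0.15), while Alad, the next step, rose from 7.73, 7.72 and 7.31 to 8.70, 8.48 and 8.62 (1.01 ± 0.15). Ppox rose by 0.63 ± 0.11. Fech, the last step, fell by 0.52 ± 0.13 and was not called without mutant replicate 1 or wild-type replicate 1. Of 39 genes of metal handling 4 rose and 5 fell (10.3% and 12.8%, against 6.37% and 9.02% of all genes). Slc30a10, a manganese exporter, rose by 0.95 ± 0.15, and Slc40a1, the iron exporter ferroportin, fell by 0.58 ± 0.13. Slc40a1 was on the list of Kupffer cell markers too, and those markers were lower in mutant liver (values below). Heme rises numbered 5 without wild-type replicate 1 or with the trended and robust prior and 6 with the dimmest 40% of genes left out, quantile normalization or array weights. Metal rises numbered 1 without mutant replicate 1 or wild-type replicate 3 or with median centring, 2 without wild-type replicate 2 and 7 with the dimmest 40% of genes left out. Metal falls numbered 2 without mutant replicate 1 and 3 without mutant replicate 3 or wild-type replicate 1.

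Among 30 genes of fatty acid synthesis, elongation and desaturation 3 rose and none fell by the limma test, with 1 lower at an unadjusted p under 0.05. Elovl3, an elongase of very long chain fatty acids, read 10.67, 11.21 and 10.71 in wild-type and 12.57, 12.67 and 12.61 in mutant liver (1.76 ± 0.13). Acss2, which makes acetyl-CoA from acetate, rose by 0.76 ± 0.15, and Mlxipl, which encodes ChREBP, rose by 0.38 ± 0.12, a call lost in 11 of 18 alternatives. The rises numbered 5 with the dimmest 40% of genes left out, quantile normalization or the trended and robust prior and 6 with the span trend removed.

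Phospholipid genes held several of the larger changes. Chka, choline kinase, rose from 6.50, 6.90 and 6.85 to 7.93, 8.34 and 8.26 (1.43 ± 0.15), and Gpcpd1, which releases choline from glycerophosphocholine, fell from 10.83, 10.39 and 10.37 to 8.83, 8.71 and 8.91. Pcyt2 of the ethanolamine branch rose by 0.85 ± 0.12 and Pemt, which methylates phosphatidylethanolamine to phosphatidylcholine, rose by 0.89 ± 0.18. Lpin1, a phosphatidate phosphatase, fell from 8.79, 9.03 and 9.11 to 7.88, 8.02 and 7.76. In the whole list of 44 genes for triglyceride and phospholipid synthesis 6 rose and 7 fell, and 12 rose with the span trend removed. The rises numbered 12 with the span trend removed.

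Sphingolipid genes fell in 7 of 44 cases and rose in 3 (15.9% and 6.82%, against 9.02% and 6.37% of all genes). The ceramide synthase genes Cers6 (from 8.86, 8.66 and 9.10 to 7.66, 7.80 and 7.89) and Cers5 (-0.66 ± 0.13) fell, while Sphk2, a sphingosine kinase, rose by 0.74 ± 0.11 and Ormdl3, an inhibitor of the first enzyme of the pathway, rose by 0.60 ± 0.11. Around the lipid droplet 5 of 32 genes rose and 5 fell. Plin2, a droplet coat gene, rose from 10.39, 10.51 and 10.54 to 11.32, 11.11 and 11.25. The lipase genes Ces1d (-0.84 ± 0.10), Abhd6 (-0.81 ± 0.16) and Pnpla8 (-0.59 ± 0.10) fell, and Ces1g fell from 10.85, 10.31 and 11.31 to 8.55, 8.97 and 8.89. The Ces1 genes are close copies of each other, so their probe sets may share signal. Droplet rises numbered 3 without wild-type replicate 3.

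In fatty acid use, the type I acyl-CoA thioesterase genes fell together: Acot3 by 1.40 ± 0.21, Acot1 by 0.84 ± 0.12, Acot4 by 0.79 ± 0.14 and Acot2 by 0.53 ± 0.12. These neighbours in the genome are alike in sequence and cannot be counted as independent. Of 39 thioesterases and acyl-CoA synthetases 4 rose and 5 fell, with 1 rise without wild-type replicate 3. Of 41 genes of oxidation and ketogenesis 7 rose and 5 fell. Hadh, of the mitochondrial spiral, rose by 0.77 ± 0.17 and Etfb, which passes its electrons on, by 0.88 ± 0.19, while Oxct1, the ketone-using enzyme that liver is known to lack, lay at 6.15, 6.07 and 6.23 in mutants and fell by 0.56 ± 0.10. Among 58 genes of peroxisome assembly and peroxisomal enzymes 12 rose and 5 fell. The assembly gene Pex16 rose from 7.76, 7.64 and 7.42 to 8.70, 8.31 and 8.67, the membrane protein gene Pxmp4 rose by 0.68 ± 0.10, and Far1, the reductase of ether lipid synthesis, fell by 0.69 ± 0.11. Thioesterase and synthetase rises numbered 1 without wild-type replicate 3 and 2 without mutant replicate 1 or 2 or wild-type replicate 1 or with quantile normalization or median centring. Oxidation rises numbered 4 without mutant replicate 1 or wild-type replicate 3. Oxidation falls numbered 1 with quantile normalization, 2 without mutant replicate 1 or 2 or wild-type replicate 1, 2 or 3 and 3 without mutant replicate 3 or with the span trend removed. Peroxisomal rises numbered 6 without wild-type replicate 3 and 7 without mutant replicate 1 or with median centring.

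Sterol genes changed in 1 direction among those called, though not under every alternative. Of 23 genes of cholesterol synthesis and SREBP2 regulation 4 rose (17.4% against 6.37%) and none fell by the limma test (3 lower at an unadjusted p under 0.05). Whichever array was left out, 4 rose. Sterol falls numbered 1 without mutant replicate 2, rescue replicate 1 or wild-type replicate 2. They also numbered 1 with the dimmest 40% of genes left out, median centring, the trended and robust prior, array weights or the span trend removed. Hmgcs1, which feeds the mevalonate pathway, read 10.25, 10.07 and 10.22 in wild-type and 11.07, 11.25 and 11.15 in mutant liver. Fdps rose by 0.86 ± 0.14, Mvd by 0.80 ± 0.11 and Ebp by 0.77 ± 0.16. The median of the list was 0.09, close to the 0.07 of all genes, so most of its members did not move with these 4. Lipoprotein genes changed little: of 43 measured 2 rose and 1 fell. Lipoprotein rises numbered 4 without rescue replicate 1 or wild-type replicate 2 or with array weights, 5 with the span trend removed, 6 without rescue replicate 2, 8 with the dimmest 40% of genes left out, 9 with the trended and robust prior and 10 with quantile normalization.

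In bile acid synthesis and transport 6 of 38 genes rose and 3 fell. Hsd3b7, an early step of every synthetic route, rose from 7.77, 7.44 and 7.30 to 8.60, 8.21 and 8.53. Cyp39a1, of a minor route, fell from 7.80, 8.70 and 8.64 to 7.60, 7.54 and 7.39, and the apical transporter gene Slc10a2 fell by 0.73 ± 0.13. Cyp8b1, which sets the share of cholic acid, rose by 0.51 ± 0.12, and leaving out wild-type replicate 1 ended that call (adjusted p = 0.0517). Bile acid rises numbered 2 without wild-type replicate 1 and 3 without wild-type replicate 2 or 3 or with median centring. Bile acid falls numbered 5 without rescue replicate 2.

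Among 48 genes of glycolysis, gluconeogenesis and fructose use 9 rose and 2 fell. The lactate transporter gene Slc16a1 rose from 6.62, 6.26 and 6.39 to 7.21, 6.95 and 7.35, and Galt, of galactose use, rose by 0.60 ± 0.12. In glycogen metabolism 4 of 25 genes fell and 2 rose. Pgm2l1, which makes glucose bisphosphate, fell from 7.35, 7.30 and 7.34 to 6.32, 6.18 and 6.13, and Ugp2, which makes the UDP-glucose that glycogen is built from, fell by 0.56 ± 0.12, while Pgm1 rose by 0.52 ± 0.11. Insulin, AMPK and mTOR genes fell in 8 of 53 cases and rose in 1 (15.1% and 1.89%, against 9.02% and 6.37% of all genes). The kinase genes Pik3cb (-0.61 ± 0.10) and Pdpk1 (-0.53 ± 0.11) and the pseudokinase gene Trib1 (-0.55 ± 0.10) fell. Insr, the insulin receptor gene, fell by 0.48 ± 0.10 on its brightest probe set, and the call was lost when all its probe sets were averaged (adjusted p = 0.0558). Glycolysis rises numbered 3 without wild-type replicate 3, 4 without mutant replicate 1 and 5 without mutant replicate 2 or 3 or wild-type replicate 2. Insulin and mTOR rises numbered 3 without rescue replicate 1 or 2 or with quantile normalization or array weights and 4 with the dimmest 40% of genes left out. Insulin and mTOR falls numbered 5 with the span trend removed.

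Genes of amino acid breakdown and of the methionine cycle changed in both directions. Of 52 genes for the breakdown of tyrosine, tryptophan, branched-chain and other amino acids 19 rose and 3 fell (36.5% against 6.37%, median 0.31), and of 42 genes of the methionine cycle and one-carbon metabolism 14 rose and 2 fell (33.3%, median 0.24). Gnmt, which uses S-adenosylmethionine to methylate glycine, read 10.45, 10.66 and 10.30 in wild-type and 11.45, 11.58 and 11.41 in mutant liver. Cbs, which commits homocysteine to cysteine synthesis, rose from 9.49, 8.91 and 8.84 to 10.29, 10.01 and 10.24. Sardh, the next step after glycine methylation, rose by 0.63 ± 0.14 and Ethe1, of sulfide removal, by 0.54 ± 0.12.

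In the breakdown list Agxt, which removes glyoxylate, rose from 7.56, 7.43 and 7.25 to 8.45, 8.35 and 8.59. Bckdha, a subunit of the branched-chain ketoacid dehydrogenase, rose by 0.59 ± 0.10 and Fah, the last step of tyrosine breakdown, by 0.70 ± 0.14. Gch1, the first step of tetrahydrobiopterin synthesis, fell by 0.58 ± 0.11. Of 35 genes of the urea cycle, nitrogen and proline 7 rose and 3 fell, with Prodh, proline dehydrogenase, at 0.60 ± 0.14 and Aspa, aspartoacylase, at -0.70 ± 0.16. Genes known to mark hepatocytes near the portal vein (6 of 33 higher, 3 lower) and near the central vein (5 of 31 higher, 2 lower) changed in both directions. Lhpp, a central marker, rose by 1.16 ± 0.21, and Cyp2c54 of the same zone fell by 0.73 ± 0.11. Breakdown rises numbered 9 without wild-type replicate 3, 11 without mutant replicate 3 or with median centring and 12 without mutant replicate 1. Breakdown falls numbered 1 without wild-type replicate 3 and 5 with median centring or the trended and robust prior. Methionine cycle rises numbered 7 without wild-type replicate 3 and 8 without mutant replicate 1 or 3 or with median centring. Urea cycle rises numbered 2 without wild-type replicate 3 and 4 without mutant replicate 3. Central rises numbered 2 without wild-type replicate 3 and 3 without mutant replicate 1, 2 or 3 or wild-type replicate 1. Central falls numbered 4 with the dimmest 40% of genes left out, median centring, the trended and robust prior or array weights. Portal rises numbered 2 without wild-type replicate 3 and 3 without mutant replicate 2 or wild-type replicate 2. Portal falls numbered 1 without mutant replicate 2 or 3 or wild-type replicate 1 or with quantile normalization or the span trend removed.

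Purine and pyrimidine genes fell in 10 of 59 cases and rose in 7, and the falls were 9 or 10 whichever array was left out. Ak4, a mitochondrial adenylate kinase gene, read 10.82, 10.67 and 10.91 in wild-type and 9.59, 9.53 and 9.64 in mutant liver (-1.22 ± 0.10). Ppat, the committing enzyme of purine synthesis, fell from 9.54, 8.96 and 9.27 to 8.32, 7.91 and 8.19, and it is the neighbour of Clock named above. Salvage and breakdown genes fell as well, with Uprt at -0.96 ± 0.12, Gda at -0.79 ± 0.11 and Hprt at -0.68 ± 0.10. A dimmer probe set of Uprt differed by only -0.2, so the size of the Uprt fall is uncertain. Purine and pyrimidine rises numbered 2 without mutant replicate 3, 3 without wild-type replicate 2 or 3 and 4 without mutant replicate 1 or with median centring.

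Genes of drug and steroid metabolism changed in both directions. Cytochrome P450 families 1 to 4 had 9 of 67 genes lower and 4 higher (13.4% and 5.97%), and conjugating enzymes had 9 of 55 lower and 5 higher (16.4% and 9.09%), against 9.02% lower and 6.37% higher over all genes. Cyp3a13 fell from 10.07, 9.92 and 10.03 to 9.34, 9.19 and 9.39, and the male-biased Cyp4a12a fell by 0.56 ± 0.11. Gsta4, a glutathione transferase for lipid aldehydes, fell from 11.54, 11.17 and 11.37 to 10.29, 10.38 and 10.42, while Gstp3, of another class, rose from 6.86, 7.04 and 7.23 to 8.83, 8.43 and 8.36. Members of these families are alike in sequence, so single probe sets are uncertain. P450 rises numbered 0 without mutant replicate 3 or wild-type replicate 3, 1 with median centring, 2 without mutant replicate 1 or 2 or wild-type replicate 1 or 2 and 7 with quantile normalization. Conjugation rises numbered 3 without mutant replicate 1 or wild-type replicate 3 or with median centring. Conjugation falls numbered 4 without mutant replicate 1 or wild-type replicate 2 and 5 without mutant replicate 2 or wild-type replicate 3.

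Nat8f5, which belongs to an N-acetyltransferase family, showed the largest measured fall after Bhlhe41, from 7.46, 7.51 and 6.94 to 5.09, 4.53 and 5.35 (-2.31 ± 0.26). Of 57 flavin monooxygenases, dehydrogenases and reductases 4 rose and 5 fell (7.02% and 8.77%), near the 6.37% and 9.02% of all genes. Among them Fmo2 fell by 0.86 ± 0.14 and Akr1c14 by 0.72 ± 0.12. ABC transporters fell in 7 of 48 cases and rose in 3, with Abca8a at -0.91 ± 0.12 and the efflux pump gene Abcg2 at -0.77 ± 0.14. Hepatocyte channels and water channels fell in 8 of 39 cases. Aqp8 was the 1 member that rose, from 6.17, 6.18 and 6.59 to 8.19, 7.69 and 7.54, whereas Aqp11 fell by 0.64 ± 0.12 and the purine receptor gene P2ry1 by 0.97 ± 0.11. NRF2 targets and glutathione genes were called lower in 4 of 43 cases (9.3%, near the 9.02% of all genes) and higher in 1 (2.33% against 6.37%). Dehydrogenase rises numbered 1 without mutant replicate 1 or with median centring, 2 without mutant replicate 2 or wild-type replicate 2 or 3 and 7 with quantile normalization. Dehydrogenase falls numbered 9 with median centring or the trended and robust prior. ABC rises numbered 1 without wild-type replicate 2 or 3 or with median centring. Channel rises numbered 3 with the dimmest 40% of genes left out, quantile normalization, the trended and robust prior or array weights and 5 with the span trend removed. NRF2 target rises numbered 4 with the dimmest 40% of genes left out. NRF2 target falls numbered 2 without mutant replicate 3 or wild-type replicate 1.

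Hormone and growth factor genes included the largest measured rise. Ntrk2, the receptor of brain-derived neurotrophic factor, read 3.10, 2.77 and 2.66 in wild-type and 5.65, 5.40 and 5.74 in mutant liver (2.75 ± 0.16), and its wild-type level lay below the olfactory receptor median (4.11), so the fold is uncertain. Nrg4, a secreted ligand of ErbB receptors, went from 8.44, 7.84 and 8.16 to 6.15, 6.07 and 6.04, and the receptor gene Erbb4 rose by 0.50 ± 0.10. Met, the receptor of hepatocyte growth factor, fell from 10.14, 10.03 and 10.15 to 9.26, 9.29 and 9.26. Lepr, the leptin receptor gene, fell by 1.51 ± 0.22, and Leap2, whose product blocks the ghrelin receptor, rose by 1.29 ± 0.16. Of 49 hepatokine and growth factor genes 2 rose and 5 fell (4.08% and 10.2%, against 6.37% and 9.02% of all genes). Hepatokine rises numbered 4 with quantile normalization and 5 without rescue replicate 2 or with the 6 arrays alone.

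Among 48 genes of growth hormone action and sex-biased expression 12 fell and 5 rose, and the falls were 10 to 13 whichever array was left out; 8 rose without wild-type replicate 1. Ddc, a decarboxylase of aromatic amino acids, rose from 7.30, 7.38 and 7.84 to 8.74, 8.45 and 8.86, and Susd4 fell by 0.87 ± 0.11. Glucocorticoid receptor targets fell in 7 of 32 cases and rose in 2 (median -0.17). Hsd11b1, which regenerates active glucocorticoid, fell from 9.57, 9.26 and 9.42 to 8.56, 8.51 and 8.66, and Errfi1, an inhibitor of the EGF receptor, fell by 0.69 ± 0.11. In the Wnt, Hippo, Notch and TGF-beta pathways 11 of 76 genes fell and 3 rose. These were 14.5% and 3.95%, against 9.02% and 6.37% of all genes, with a median difference of 0.04. The BMP receptor genes Bmpr2 (10.41, 10.48 and 10.61 against 9.69, 9.68 and 9.71) and Bmpr1a (-0.71 ± 0.11) and the signal carrier gene Smad2 (-0.59 ± 0.10) fell, and Ccn1, a YAP target, rose by 0.63 ± 0.12. Pathway rises numbered 1 without mutant replicate 2 or 3 or wild-type replicate 1 or 3 or with median centring and 5 with the span trend removed.

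Retinoid and vitamin genes changed in both directions, with 7 of 50 higher and 8 lower. The retinoid dehydrogenase and reductase genes Dhrs9 (5.83, 5.56 and 6.04 against 6.78, 6.65 and 6.75) and Dhrs3 (0.79 ± 0.13) rose. Lrat, which esterifies retinol in stellate cells, fell by 0.81 ± 0.15, and Rfk, which makes the cofactor FMN, fell by 0.78 ± 0.12. The rises numbered 4 without mutant replicate 2 or wild-type replicate 3 and 11 with quantile normalization. The falls numbered 4 without wild-type replicate 1 and 5 without mutant replicate 2 or wild-type replicate 2 or with quantile normalization.

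Complement, coagulation and acute phase genes fell more often than they rose, though the balance was near even with quantile normalization. In complement and coagulation 17 of 59 genes fell and 7 rose (28.8% lower against 9.02%). The median difference was -0.05, against 0.07 over all genes. The Kupffer and endothelial marker sums, given with the cell type markers, were lower in the same 3 mutants (2811 to 3006 against 5376 to 7250, and 4740 to 4960 against 6683 to 7447), and the part of those cells in these falls was not tested. F8, clotting factor VIII, a product of sinusoidal endothelium, read 10.08, 10.10 and 10.12 in wild-type and 9.12, 8.97 and 9.11 in mutant liver. Cd55, which protects cells from complement, fell from 8.61, 8.60 and 8.67 to 7.69, 7.53 and 7.36. The pathway genes C6 (-0.66 ± 0.12) and C2 (-0.55 ± 0.10) fell as well. Of 38 acute phase and interleukin 6 genes 8 fell and 4 rose, with the receptor gene Osmr at -0.65 ± 0.10, Saa4 at -0.66 ± 0.13 and Itih3 at 0.55 ± 0.11. Serpins changed little (3 of 47 higher, 2 lower), although Serpina12, also called vaspin, rose from 6.82, 7.25 and 7.33 to 7.96, 8.10 and 8.07. Complement rises numbered 3 without mutant replicate 1 or wild-type replicate 2, 4 without wild-type replicate 3 or with median centring and 12 with the dimmest 40% of genes left out, quantile normalization, the trended and robust prior or array weights. Complement falls numbered 11 without mutant replicate 1. Acute phase rises numbered 1 without wild-type replicate 3 and 7 with quantile normalization or array weights. Acute phase falls numbered 4 without mutant replicate 1 or wild-type replicate 1 and 5 without mutant replicate 2. With quantile normalization 12 complement genes rose and 13 fell, and 7 acute phase genes rose and 7 fell. Serpin falls numbered 4 without rescue replicate 2.

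Many markers of Kupffer cells and sinusoidal endothelium were lower in mutant liver, and fewer of those of stellate cells were. In bulk tissue fewer cells of a type and less RNA per cell cannot be told apart. Among the 22 markers of Kupffer cells and other macrophages 12 fell and none rose by the limma test (1 higher at an unadjusted p under 0.05), and of 30 sinusoidal endothelial markers 15 fell and none rose (1 higher). The summed linear level of the Kupffer list was between 5376 and 7250 in wild-type and between 2811 and 3006 in mutant liver, and that of the endothelial list between 6683 and 7447 and between 4740 and 4960. Such sums are weighted toward bright genes, and the bright gene Vsig4 (values below) made up a large part of the Kupffer sums. The median log2 difference was -0.46 over the Kupffer list and -0.42 over the endothelial list, against 0.07 over all genes. The stellate cell list, with 5 of 22 lower and 1 higher, summed to between 5446 and 5902 and between 4572 and 4760. Its median difference was only -0.11, and 16 of its 22 genes were not called. Hepatocyte markers overlapped, at 63695 to 71056 and 68140 to 77351, with 3 of 16 higher and none lower by the limma test (1 lower at an unadjusted p under 0.05). Alb itself was level at 13.04, 13.20 and 12.97 against 12.92, 13.31 and 12.99, so the tissue held its defining hepatocyte marker in every array.

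Not every marker of these cells moved alike. Vsig4, a complement receptor of Kupffer cells, went from 11.51, 11.16 and 11.20 to 9.02, 9.15 and 9.29, and the macrophage gene Adgre1 fell by 1.40 ± 0.21. Clec4f, another Kupffer cell gene, overlapped at 8.14, 7.50 and 7.33 against 7.13, 7.41 and 7.22 (-0.40 ± 0.17, not called). The endothelial genes Mrc1 (-0.96 ± 0.13) and Cdh5 (-0.96 ± 0.14) fell, whereas Stab2 (-0.27 ± 0.11) and Pecam1 (-0.36 ± 0.12) were not called. Among other cell types, cholangiocyte (1 of 10 lower), T, B and NK cell (2 of 19 lower), neutrophil (0 of 13, and 2 at an unadjusted p under 0.05), red cell (1 of 4 lower), adipocyte (1 of 7 lower) and pancreas markers (1 of 10 higher) showed few calls in the limma fit. The cholangiocyte sums were 904 to 1006 in wild-type and 1012 to 1102 in mutant liver and the pancreas sums 539 to 586 and 621 to 683, so both were slightly higher in every mutant. None of the neutrophil markers lay above the dimmest 40% of genes.

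**Figure D4:**
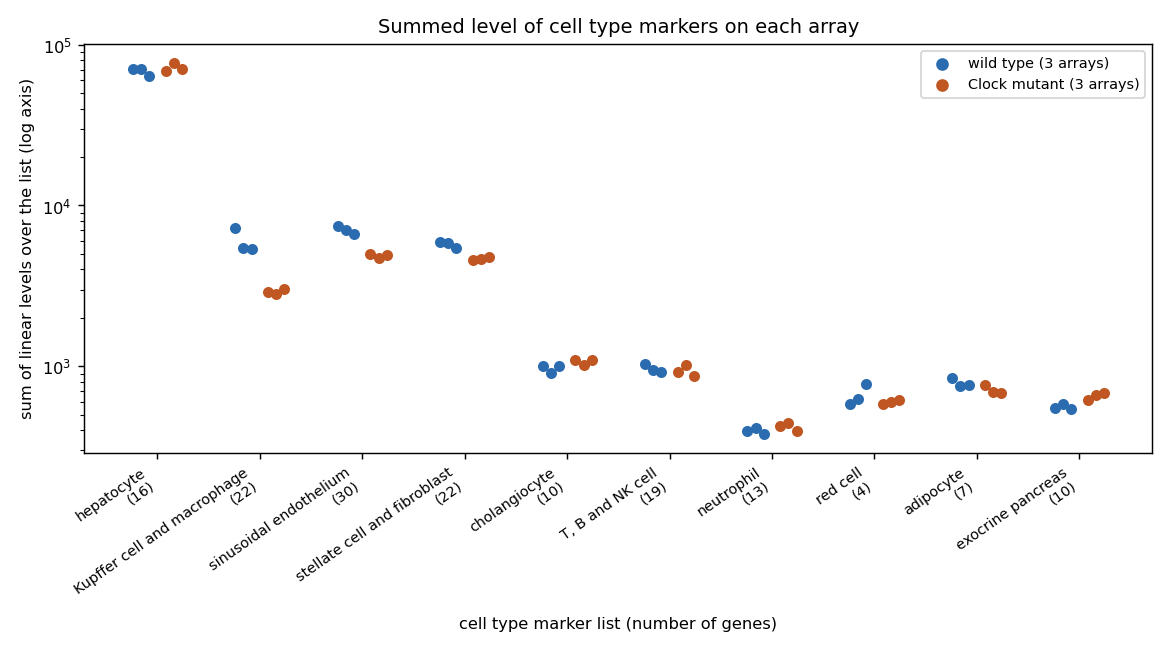
Sum of linear levels over each cell type marker list (log axis) on the 3 wild-type (blue) and 3 mutant (orange) arrays, with the number of genes in brackets. The Kupffer cell, endothelial and stellate lists are lower in every mutant (Kupffer sums 2811 to 3006 against 5376 to 7250). The cholangiocyte and pancreas lists, made up mostly of dim genes, are slightly higher in every mutant. The other lists, hepatocyte included, overlap.

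Innate immune genes are given beside these markers. Of 72 interferon-inducible genes 21 fell and 4 rose (29.2% lower against 9.02%, median -0.06). Ifi207, of the DNA-sensing Ifi200 family, went from 9.04, 8.58 and 9.04 to 7.14, 7.20 and 7.39. Ifi205, of the same family, fell by 2.27 ± 0.21 to a level below the olfactory receptor median, and these paralogs may share signal. The guanylate-binding protein gene Gbp2b fell by 1.34 ± 0.12 and the chemokine gene Cxcl9 by 1.22 ± 0.14. Of 50 genes of toll-like receptor and NF-kB signalling 12 fell and 3 rose. The receptor genes Tlr7 (5.31, 4.92 and 5.39 against 3.77, 4.27 and 4.22), Tlr3 (-0.89 ± 0.13) and Tlr4 (-0.72 ± 0.13) fell, as did Casp1, the inflammasome protease (-1.08 ± 0.18). The mutant values of Tlr7 lay near the olfactory receptor median, so the size of its fall is uncertain. Interferon-inducible rises numbered 1 without mutant replicate 2 and 2 without mutant replicate 3 or wild-type replicate 2. Interferon-inducible falls numbered 12 without wild-type replicate 3. Toll-like receptor falls numbered 6 with the dimmest 40% of genes left out.

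In antigen presentation 4 of 36 genes fell and 3 rose (11.1% and 8.33%, against 9.02% and 6.37% of all genes). The class II genes H2-Ab1 (8.36, 7.93 and 8.30 against 7.18, 7.09 and 7.07) and H2-Aa (-1.03 ± 0.13) fell. The scavenger receptor gene Msr1 fell by 1.61 ± 0.13 and the leukocyte receptor gene Lilr4b by 1.64 ± 0.15. The Kupffer sums above were lower in the same 3 mutant arrays. The part of those cells in the interferon, toll-like receptor and class II results was not tested.

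Adhesion genes were lower in 12 of 115 cases (10.4%, near the 9.02% of all genes) and higher in 4. Dsg1c, a desmoglein of desmosomes, fell from 7.36, 7.34 and 7.42 to 5.33, 4.87 and 5.44. Vcam1, which binds leukocytes and is made by endothelium and Kupffer cells, fell by 1.24 ± 0.12. Tjp1, a scaffold of tight junctions, fell by 0.57 ± 0.10. Matrix genes were called in 10 of 125 cases, 6 higher and 4 lower. These shares (4.8% and 3.2%) were under the 6.37% and 9.02% of all genes. The protease inhibitor gene Timp3 (8.40, 8.23 and 8.43 against 7.21, 7.34 and 7.30) and Postn (-1.35 ± 0.12), which encodes periostin, were among the falls. Adhesion rises numbered 2 without wild-type replicate 3. Matrix rises numbered 2 without mutant replicate 1 or wild-type replicate 3 or with median centring, 3 without mutant replicate 3 or wild-type replicate 1, 10 with array weights and 12 with the span trend removed. Matrix falls numbered 7 with the dimmest 40% of genes left out and 9 with median centring.

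Cell cycle genes fell in 10 of 59 cases and rose in 2 (16.9% and 3.39%, against 9.02% and 6.37% of all genes). The pocket protein genes Rb1 (8.32, 8.35 and 8.55 against 7.68, 7.33 and 7.66) and Rbl2 (-0.65 ± 0.10), which restrain the cycle, fell together with the proliferation genes Mki67 (-0.76 ± 0.14) and Top2a (-0.63 ± 0.11). In DNA repair and p53 targets 9 of 57 genes fell and 4 rose (15.8% and 7.02%). The checkpoint kinase gene Atr was at -0.72 ± 0.12 and the ligase gene Lig4 at -0.51 ± 0.11. Rnaseh2b, a subunit of the nuclease that removes RNA from DNA, fell from 7.65, 7.44 and 7.92 to 6.26, 6.11 and 6.30. Cell cycle rises numbered 4 with the dimmest 40% of genes left out. Cell cycle falls numbered 5 with the dimmest 40% of genes left out and 6 without wild-type replicate 3. Repair rises numbered 0 without mutant replicate 1 or wild-type replicate 1, 1 without wild-type replicate 3 or with median centring and 2 without mutant replicate 3. Repair falls numbered 3 without mutant replicate 2 or wild-type replicate 3 and 5 without wild-type replicate 1 or 2.

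Genes for short non-coding RNAs stood among the larger rises. Of the 30 largest rises without overlap between groups, counted without microRNA, receptor and predicted genes, 5 were of this kind. Rpph1, the RNA of ribonuclease P, read 9.27, 9.81 and 9.13 in wild-type and 11.37, 11.92 and 11.89 in mutant liver (2.33 ± 0.17, limma adjusted p = 2.94e-06). Rny1, a Y RNA, rose by 1.43 ± 0.19 and Vaultrc5, a vault RNA, by 1.17 ± 0.14. Of 53 small nucleolar RNA genes 9 rose and 5 fell, and of 297 microRNA genes 21 rose (7.07% against 6.37% of all genes) and 1 fell. The array reads the region of the gene, so precursor and mature forms are not separated.

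These microRNA genes rose at least 2-fold and had mutant levels above the olfactory receptor median, and they are shown by a mature arm each, from RefSeq (build GRCm38.p6), with the seed (bases 2 to 8) in capitals.
mmu-miR-107-3p (chr19:34820700-34820722, minus strand): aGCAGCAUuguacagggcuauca
mmu-miR-99a-5p (chr16:77598940-77598961, plus strand): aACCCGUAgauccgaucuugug
Mir107 lies in an intron of a pantothenate kinase gene and read 7.85, 7.66 and 7.81 in wild-type and 9.20, 9.15 and 8.48 in mutant liver (1.17 ± 0.17). Mir99a rose by 1.13 ± 0.23. Its wild-type values (4.33, 4.37 and 3.93) were close to the olfactory receptor median (4.11), so the fold is uncertain. Mir33 was called too, but lay under that median in both groups (0.26, 1.64 and 1.12 in wild-type and 3.02, 3.17 and 3.12 in mutant liver), so no fold is given.

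**Figure D5:**
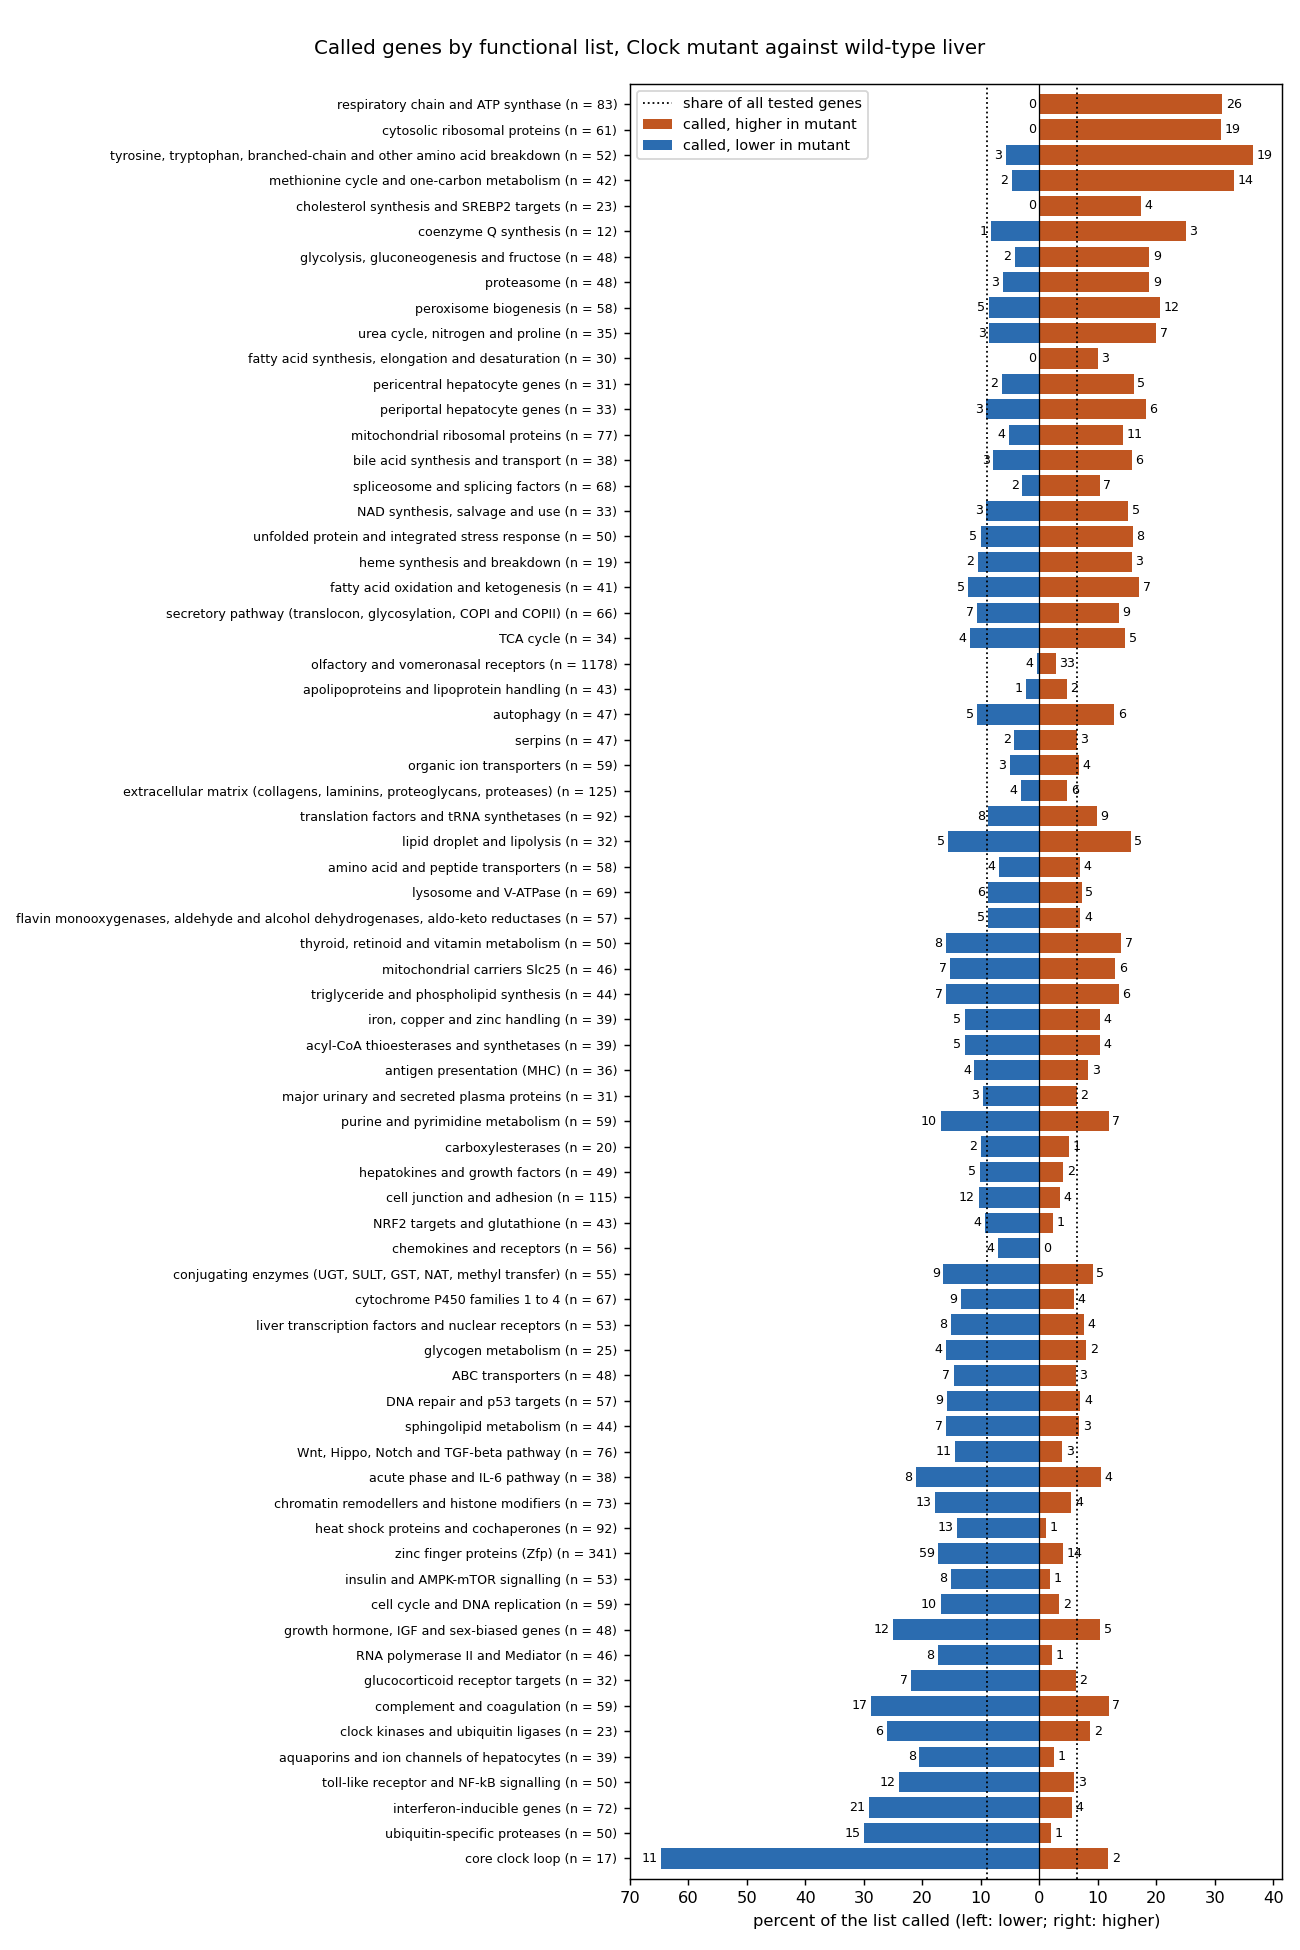
Percent of the measured genes of each functional list that were called higher (orange, right) or lower (blue, left) in mutant liver, with the counts at the bar ends and the number measured in brackets; lists are ordered by the difference between both percentages, and dotted lines mark the shares over all tested genes (6.37% higher, 9.02% lower). The respiratory chain (26 of 83 higher) and cytosolic ribosomal proteins (19 of 61 higher) stand at the top, and the core clock loop (11 of 17 lower) stands at the bottom.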

How the data were processed

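Liver RNA of 9 mice was measured on Affymetrix Gene 1.0 ST arrays, 1 array per mouse and 3 mice per group. The deposited values are log2 expression from RMA in Affymetrix Expression Console, per the submitters' processing notes. RMA subtracts background, equalises the distributions of the arrays and summarises the probes of each probe set, so an overall shift in RNA amount cannot be seen. Depth does not apply to arrays, and their number limits the precision. The genome build is not given in the sources used here.

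Of 35556 probe sets, 21789 carried 1 gene symbol, 1621 several and 12146 none. Entrez identifiers of 21698 matched the RefSeq gene table, which changed 0 symbols and was used for gene span and gene order. The brightest probe set per gene over all arrays gave 19938 genes. limma 3.58.1 (R 4.3.3) was fitted on all 9 arrays with 3 groups, so that the 3 plasmid-treated mutants add to the estimate of the spread (6 residual and 8.47 prior degrees of freedom), and the contrast was mutant minus wild type. Genes were called at a Benjamini-Hochberg adjusted p under 0.05. Tested on simulated data for this comparison (19938 genes), the fit called 50% of altered genes at a log2 effect of 0.5 and 100% at an effect of 1. Far fewer genes were called in the simulation than in the data (159 against 3068). The Benjamini-Hochberg cutoff was therefore stricter there, and these shares do not give the recovery in the data.

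Named genes were the core clock loop, the 30 largest called rises and falls without overlap between groups (predicted genes and receptor, microRNA and similar families left out), the 5 called genes of smallest p in each list, and the first 3 markers of each cell type. Neighbours of Clock and the microRNA genes were named outside that rule, after their values were seen. The members and lists were chosen with earlier results of these data known. Promoter and microRNA sequences came from RefSeq tables (GRCm38.p6). Of 74 genes picked for motifs, 56 had a promoter in the table. Alternatives were a replicate block, the 6 arrays alone, leaving out the dimmest 40% of genes, repeated quantile normalization, median centring, a trended and robust prior, array weights, the mean of all probe sets, removal of a spline on gene span with 4 degrees of freedom, and leaving out each array. Figures were drawn with matplotlib 3.10.9.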

Additional observations from a re-analysis of the deposited data

How the results depend on the processing

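With single arrays left out, between 1695 and 3130 genes were called, between 533 and 1334 rising and between 1162 and 1796 falling. Median centring left 610 rises. Deviations from the group mean were correlated between same-numbered samples. For replicates 1 and 2 the correlations were between 0.071 and 0.191, and for replicate 3 between -0.111 and 0.047. These values do not settle whether the numbers pair the animals. The fit with the replicate number as a block called 3368 genes, against 3068 without it. With that block the rises numbered 9 in place of 5 among lysosomal genes, 5 in place of 3 among heme genes, 4 in place of 2 among hepatokines and 3 in place of 1 among heat shock proteins and cochaperones, and 7 olfactory and vomeronasal receptors fell in place of 4. Rises went from 1 to 2 for RNA polymerase II and Mediator, insulin signalling and hepatocyte channels, as did falls for apolipoproteins. The difference in Arntl was 0.03 with the span trend removed and between -0.20 and 0.04 with single arrays left out. Rora was at 0.04 with repeated quantile normalization. Alb was at -0.12 with repeated quantile normalization, -0.07 with median centring, -0.06 with array weights, -0.02 with the span trend removed and between -0.11 and 0.08 with single arrays left out. None of these values was called, and the cause of the changes was not tested. Of 362 called named genes, 297 were called under every one of the 18 alternatives and 65 lost the call under at least 1. Genes near background, such as Ntrk2 in wild-type liver, have uncertain folds.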
